A study of Mus musculus with 4 samples.

Results

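Skeletal muscle genes were followed in whole skin of newborn mice that lack loricrin, a major building block of the outer envelope of epidermal cells, and of wildtype mice. The list held 42 genes, chosen by name for their role in striated muscle. All 42 had a probe set, a group of short probes read as 1 signal, among the 13674 named genes measured. The first array type carried 41 of them among 8251 genes and the second carried 4 among 7542, of which 3, Ldb3, Myl1 and Tpm1, lay on both types.

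All mice were of strain FVB/N and whole skin was taken on postnatal day 0. There were 4 arrays in all, 2 of loricrin knockout and 2 of wildtype skin, with 1 array per genotype on each type. Neither genotype carried a further allele or treatment in the labels, and the age was the same. The labels do not say how many animals gave each RNA or how the loricrin gene was disrupted, nor whether the array titled a replicate held RNA of other animals.

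The genotype labels were checked on loricrin (Lor), whose probe set of higher signal read 2013 in the array labelled knockout and 41224 in the wildtype array of the first type. The second type has no listed loricrin probe set. Xist, the RNA of the inactive X chromosome, read 857 in the knockout array and 24.7 in the wildtype array of the first type, and the Y-linked Eif2s3y 42.7 and 1071. Y-linked Kdm5d on the second type read 12.2 and 976. Sex and genotype therefore cannot be told apart in any comparison here.

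Whole skin of a mouse includes the panniculus carnosus, a thin sheet of striated muscle under the dermis, unless the dissection leaves it behind. Contraction in such muscle depends on sarcomeres, in which thick filaments of myosin slide along thin filaments of actin under the control of troponin and tropomyosin. Many of these proteins come in fast, slow and developmental isoforms encoded by separate genes, and around birth the developmental isoforms are being replaced by adult ones.

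Most of these genes read low in both genotypes. A floor was set at the mean of the 40th percentiles of the arrays of a type, which came to 77.6 signal units for the first type and 133 for the other. Lower signals were raised to it before ratios were taken. On the first type 13 of 41 muscle genes had both signals above the floor, a share of 31.7%, where 65.5% of all genes did. At least 1 signal above it was found for 18 of 41 muscle genes, or 43.9%, against 72.4% of all genes. The remaining 23 lay below it in both arrays. With the floor at the 20th percentile 24 of 41 had both signals above it, against 82.4% of all genes, and at the 60th 3 of 41 did, against 46.1%. A signal under the floor is a low probe set reading and by itself shows neither weak nor absent expression of the gene. Krt5 and Krt14, the keratins of basal epidermis, also read below the floor in both arrays. Krt5 read 6.70 in knockout and 9.42 in wildtype, and Krt14 32.0 and 8.83. The smooth muscle gene Myh11 read 4.08 and 8.17 on the first type but 403 and 381 on the second, through another probe set.

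The 7 genes taken as defining skeletal muscle were checked against the name of the list. Acta1, the actin of adult skeletal muscle thin filaments, read 26.1 in knockout and 8.72 in wildtype. The creatine kinase Ckm read 74.1 and 73.8, the fast troponins Tnni2 54.3 and 11.0 and Tnnt3 2.30 and 4.30. On these probe sets the 4 genes lay below the floor in both arrays. A second Ckm probe set read 49.4 and 81.3, just above it in wildtype only. The fast myosin heavy chain Myh4 read 89.3 and 75.3, and Atp2a1, the calcium pump of fast fibres, 77.3 and 115, each with 1 signal above it. Only the fast regulatory light chain Mylpf exceeded it in both arrays, at 151 and 251. A second Mylpf probe set read 1.63 and 0.845, below it in both. The list is therefore described by its gene names below and is not read as an amount of muscle in either sample.

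**Figure D1:**
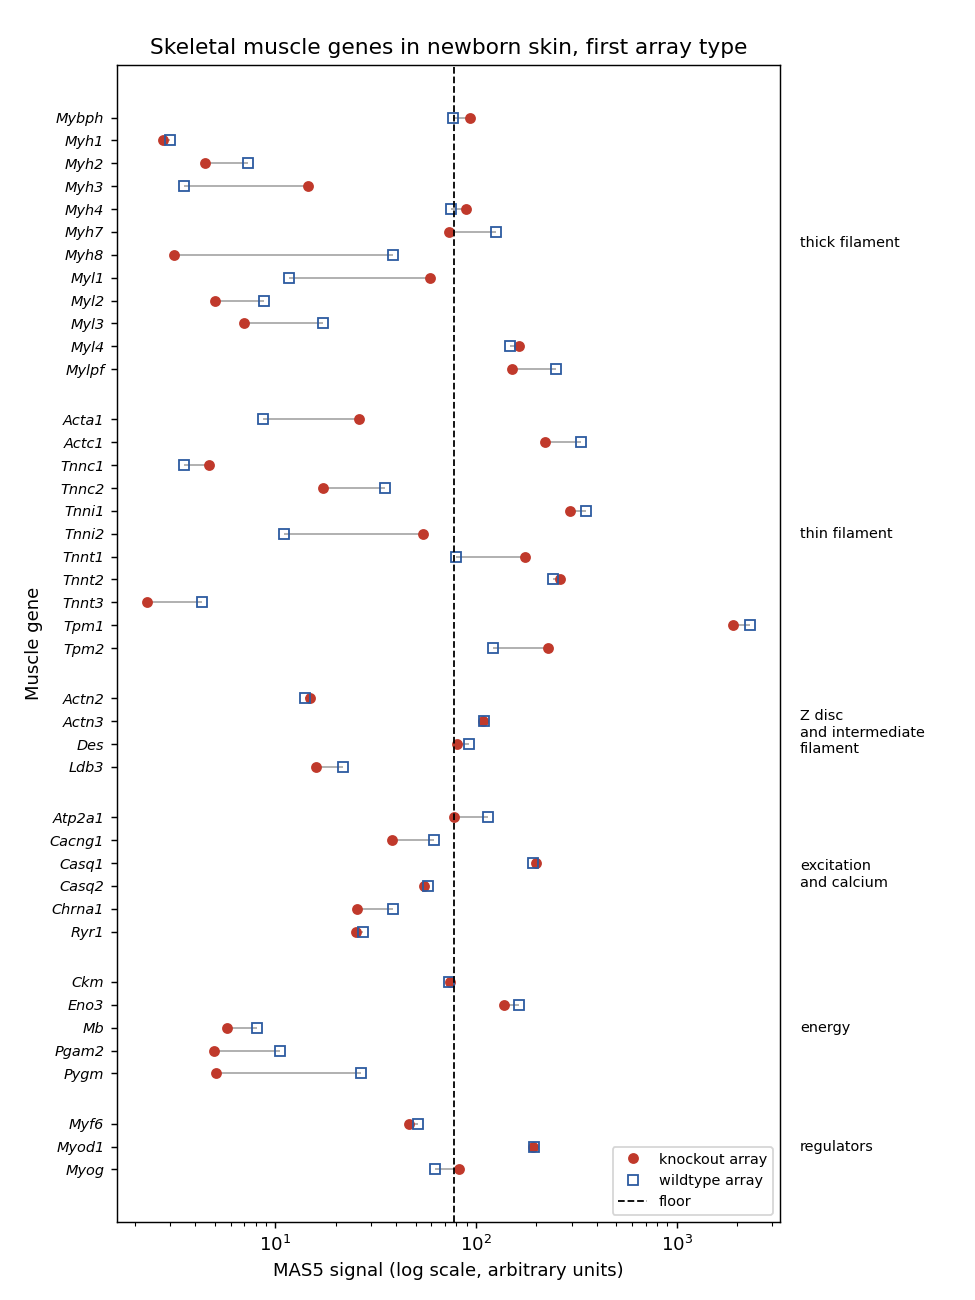
Signals of the 41 muscle genes on the first array type, 1 row per gene grouped by role, with the MAS5 signal on a log axis. Circles are the knockout array, squares the wildtype array, and the dashed line is the floor of 77.6. 23 genes lie left of the line in both arrays and 13 lie right of it in both.

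The promoters of the list carry letters known from muscle genes, whatever their signal here. RefSeq promoter windows on GRCm38.p6 were matched for 36 of 42 genes, giving 43 windows. Not matched were Actn3, Tnni2, Tnnt3, Cacng1, Myod1 and Myf6. Over the 250 bases before each start, both strands searched, CAGCTG, the E-box form bound by myogenic factors such as MyoD, was found in 44.2% of the muscle gene windows and in 13.0% of all 32851 windows. CANNTG, which includes CAGCTG, was found in 83.7% and 66.2%. The CArG box of serum response factor was found in 6 of 43 windows (14.0%) against 1.47%, and the motif named for MEF2 in 6 of 43 (14.0%) against 2.92%. CAGCTG stood in 10 of 19 windows of genes with a mean log2 signal above the floor on a type and in 9 of 24 windows of the others, so genes that read low also carried it. A match is a string of letters and not a bound site. The windows of Acta1, below the floor in both arrays, and of Tpm1, above it in both on the first type, are shown because the gene that read low holds both motifs and the other holds none. Capitals mark CAGCTG and the CArG box. The Acta1 window lies at chr8:123894776-123895025 on the minus strand and the Tpm1 window at chr9:67049214-67049463 on the minus strand, and the latter holds neither of them nor the MEF2 motif.
Acta1: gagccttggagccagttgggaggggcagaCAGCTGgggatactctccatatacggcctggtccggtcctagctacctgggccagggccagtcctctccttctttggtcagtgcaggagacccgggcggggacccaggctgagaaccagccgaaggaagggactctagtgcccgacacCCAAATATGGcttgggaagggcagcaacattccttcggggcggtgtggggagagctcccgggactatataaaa
Tpm1: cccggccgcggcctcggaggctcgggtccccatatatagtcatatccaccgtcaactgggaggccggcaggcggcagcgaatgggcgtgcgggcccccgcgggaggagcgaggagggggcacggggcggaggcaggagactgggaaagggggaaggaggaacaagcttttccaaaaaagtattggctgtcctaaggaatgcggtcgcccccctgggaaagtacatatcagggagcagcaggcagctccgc

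The comparison of genotypes asks whether muscle transcripts of newborn skin change without loricrin. On the first type 1 of 41 muscle genes was at least 2-fold higher in knockout, where 0.836% of all genes were, and 0 of 41 was at least 2-fold lower, where 1.38% were. With 1 array per genotype this is a rule of size and no test. The mean log2 signal exceeded the floor for 17 muscle genes. Of these, 10 read lower and 7 higher in knockout, and 5 differed by at least 1.5-fold in either direction. Their median log2 ratio of knockout over wildtype was -0.02, and the median of the 5653 genes that met the same condition was 0.02. The floor limits what could be seen. A 2-fold fall can be measured only where the wildtype signal is at least double the floor, which held for 8 of 41 muscle genes, and a 2-fold rise only where the knockout signal is, which held for 9.

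All directions are relative to the typical gene of the array pair. The 9 bacterial spike-in probe sets of the first type had a mean log2 ratio of -0.69, and scaling on them moved the median of all genes to 0.70 and that of the muscle genes to 0.52. Of the muscle genes read as lower on the first type, only Mylpf and Myh7 then stay lower, at -0.05 and -0.09. Tpm1, Tnni1, Actc1, Atp2a1, Des, Eno3, Actn3 and Myod1 become higher in knockout, from 0.09 for Actc1 to 0.67 for Myod1. On the second type Tpm1 stays lower, at -0.20, and Ttn becomes higher, at 0.46. Under spike-in scaling 96.6% of all 2-fold calls were higher in knockout on the first type, against 37.7% as reported. On the second type it was 95.9% against 44.1%.

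The myosins and their partners in the thick filament showed no shared direction. Mylpf, a light chain of fast fibres, read 151 in knockout against 251 in wildtype skin and was 1.66-fold lower, with a log2 ratio of -0.73. The other Mylpf probe set lay below the floor in both arrays. Myh7, the slow myosin heavy chain that the heart also makes, read 73.4 and 126 and was at least 1.63-fold lower. This is a bound because the knockout signal was under the floor. The probe set carries a suffix for sequence shared by a family, and the other Myh7 probe set read 12.2 and 7.56. Myl4, the light chain of embryonic muscle and of the atrium, read 163 and 148, a log2 ratio of 0.14. None of these passed 2-fold. Myh4 stood at 0.20 and Mybph, a myosin-binding protein, read 93.9 and 76.9, at 0.27. Both are bounds, with the wildtype signal just under the floor. The Myh4 probe set also carries a suffix, of another kind, and the other Myh4 probe set read 1.54 and 10.3. The other 7 measured members of the group, the heavy chains Myh1, Myh2, Myh3 and Myh8 and the light chains Myl1, Myl2 and Myl3, were below the floor in both arrays. Among them the adult fast chains Myh1 and Myh2 did not exceed 7.32 in any array, the embryonic Myh3 read 14.6 and 3.50, and the perinatal Myh8 read 3.12 and 38.7. These low values have no reliable ratio.

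Thin filament genes had both signals above the floor in 6 of 11 members, out of 13 such genes in the whole list. Tpm1, a tropomyosin that many non-muscle cells also make, read 1918 in knockout against 2318 in wildtype skin, with a log2 ratio of -0.27. Tpm2, another tropomyosin shared with smooth muscle, read 229 and 122, 1.88-fold higher in knockout but short of 2-fold. Tnni1, the slow inhibitory troponin, read 296 and 352, at -0.25. Tnnt2, the troponin T of heart and developing skeletal muscle, read 262 and 242, at 0.11. Actc1, the actin of heart and fetal muscle, read 222 and 335, 1.51-fold lower, through a probe set whose suffix marks sequence shared by a family. The members below the floor were Acta1, Tnnc1, Tnnc2, Tnni2 and Tnnt3.

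Tnnt1, the slow troponin T, was the 1 muscle gene past 2-fold, and its probe sets disagreed. Its probe set of higher mean signal read 176 in knockout and 79.5 in wildtype, 2.21-fold higher, with the wildtype signal just above the floor of 77.6. The other read 81.9 and 131, a log2 ratio of -0.67 or 1.59-fold lower. The first of them carries a suffix for probes shared by several transcripts, and without such probe sets the count of muscle genes past 2-fold was 0. A direction for Tnnt1 cannot be given from these arrays. Of the 13 muscle genes with several probe sets on the first type it was the only 1 with more than 1 probe set of mean log2 signal above the floor, so agreement between probe sets could not be checked for the other 12.

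**Figure D2:**
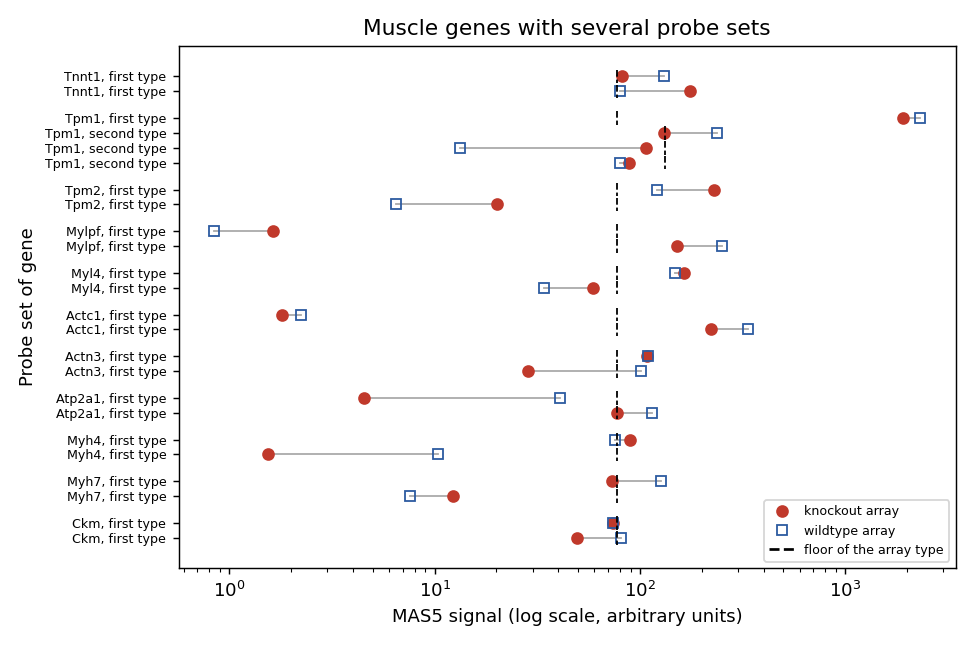
Signals of every probe set of 11 muscle genes that have several, 1 row per probe set, on a log axis. Circles are knockout and squares wildtype arrays, and dashed ticks mark the floor of the array type. The Tnnt1 probe sets run in opposite directions, and in most other genes 1 probe set lies left of the floor in both arrays.

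No gene of the Z disc, of calcium handling or of energy supply passed 2-fold. Des, the intermediate filament desmin that smooth muscle also makes, read 80.1 in knockout and 92.8 in wildtype, at -0.21. Actn3, the actinin of fast Z discs, read 108 and 109, at -0.02. Its other probe set read 28.6 and 102, at least 1.31-fold lower in knockout. Actn2 and Ldb3 were below the floor. Casq1, the calcium store protein of fast fibres, read 198 and 193, a log2 ratio of 0.04. Atp2a1 was at least 1.48-fold lower, with a knockout signal of 77.3 against the floor of 77.6. That probe set carries a suffix for probes shared by several transcripts, and the other Atp2a1 probe set read 4.53 and 40.7. The release channel Ryr1, the channel subunit Cacng1, the receptor subunit Chrna1 and Casq2 were below the floor in both arrays. Of 5 energy genes Eno3, the muscle enolase, read 138 and 163, at -0.24, and Ckm, Mb, Pgam2 and Pygm were below the floor on the probe sets used. Myoglobin (Mb) read 5.72 and 8.11 on its probe set of higher mean signal and 3.32 and 1.52 on the other.

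Of the myogenic transcription factors, Myod1 read 193 in knockout against 194 in wildtype skin, with a log2 ratio of -0.01. Myog, which drives terminal differentiation of myoblasts, read 82.5 and 62.7, above the floor only in knockout, at 0.09. Myf6 read 46.5 and 51.2, below the floor in both. The 3 regulators thus showed no change past 2-fold.

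The isoform lists did not separate by genotype under the rule of size. Of 11 fast genes 5 had a mean log2 signal above the floor, with a median log2 ratio of -0.02. For the slow list it was 3 of 7 with a median of -0.25, which is the value of Tnni1, and for the developmental list 3 of 5 with a median of 0.11. Within each list the ratios spread over both signs, from -0.73 to 0.20 for the fast, from -0.70 to 1.14 for the slow and from -0.60 to 0.14 for the developmental genes. Among all genes under the same condition log2 ratios from the lower to the upper quartile ran from -0.23 to 0.26. The lists are too short for a difference between them to be read.

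**Figure D3:**
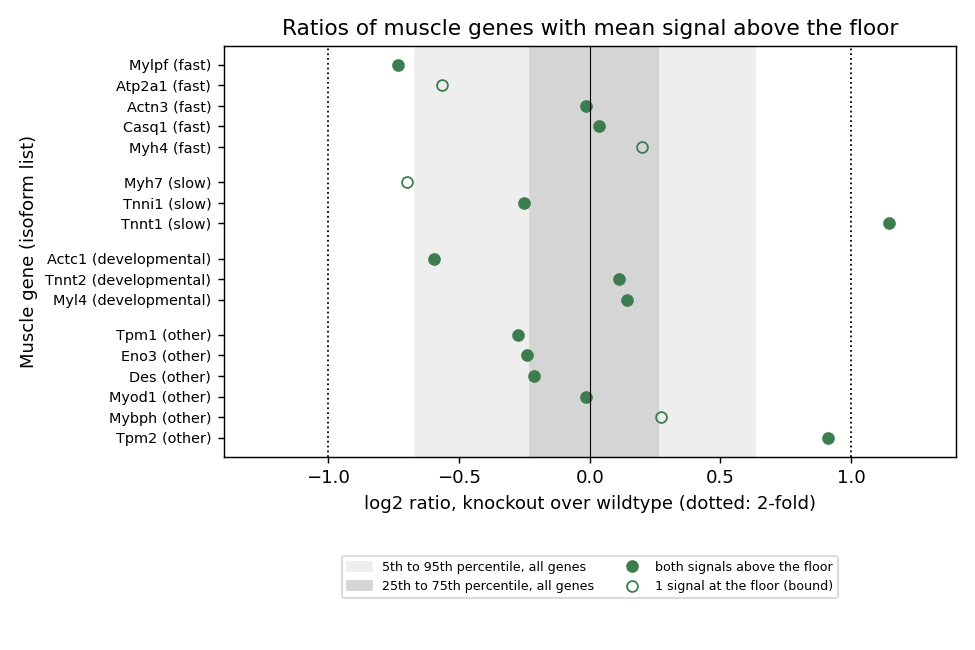
Log2 ratios of knockout over wildtype for the 17 muscle genes of the first type with mean log2 signal above the floor, grouped by isoform list. Filled circles have both signals above the floor, open circles are bounds, grey bands give the percentiles of 5653 genes, and dotted lines mark 2-fold. Tnnt1 alone passes 2-fold, and its other probe set reads -0.67.

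The second array type repeated little of this. Of its 4 muscle genes 1, the giant sarcomere protein titin (Ttn), had both signals above the floor, where 63.7% of all genes did, and 2 had at least 1 signal above it, where 74.3% did. Ttn read 199 in knockout against 226 in wildtype skin, with a log2 ratio of -0.19, and its other 2 probe sets lay below the floor. Tpm1 read 131 and 236 there and was at least 1.77-fold lower, a bound. Ldb3, at 58.8 and 88.7, and Myl1, at 18.9 and 18.3, were below the floor in both arrays. No muscle gene passed 2-fold on this type, on which 2.12% of all genes were lower and 1.67% higher by that rule.

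Tpm1 was thus the only muscle gene whose ratio could be taken on both types. It read lower in knockout on both, by -0.27 and by -0.83 or lower. limma, fitted over 1081 genes with the type as a block, gave Tpm1 a mean log2 ratio of -0.55 (SE 0.25, unadjusted p = 0.0428, adjusted p = 0.480, lower on 2 of 2 types). It did not pass an adjusted p of 0.05, which 0.0925% of the genes did, and 10.2% had an unadjusted p under 0.05. Its other 2 probe sets on the second type lay below the floor, 1 at 107 in knockout and 13.2 in wildtype and 1 at 88.5 and 80.3. The mean of -0.55 takes the second ratio at its bound. The spread behind these p-values is the gap between the ratios of the 2 types, read by different probe sets and pooled over genes. Whether separate animals were used is not stated, so this spread may hold no difference between animals.

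A longer list of 80 other skeletal muscle genes, among them Z disc proteins, receptor subunits and metabolic enzymes, gave a like picture on the first type. Of 50 measured, 21 had both signals above the floor, or 42.0%, and 0 passed 2-fold in either direction. The median log2 ratio was -0.13 over the 25 with mean log2 signal above the floor. The lamin Lmna, at 10283 in knockout and 11983 in wildtype, and the aldolase Aldoa, at 10042 and 9992, are made by most cells. Of those 25 genes 15 read lower and 10 higher in knockout, from Ankrd2, 1.85-fold lower, to Sypl2, at least 1.68-fold higher. The titin-cap protein Tcap was at least 1.53-fold lower, at 22.2 and 119, and parvalbumin (Pvalb) read 1390 and 1828. The Pvalb probe set is 1 of 2 for that gene and carries a suffix. The satellite cell regulator Myf5 read 1.43 and 1.02. On the second type 25 were measured, 8 with both signals above the floor, 0 passed 2-fold, and the median over 8 genes was 0.05.

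Several members are shared with smooth muscle of vessels and hair follicles, so its markers were set beside them. Of 8 measured on the first type, 2 had both signals above the floor, and the summed signal was 799 in knockout and 1319 in wildtype. The actin-binding protein Tagln was at least 2.07-fold lower in knockout, at 75.8 and 161, and none was 2-fold higher. The kinase Mylk read 235 and 389, 1.66-fold lower, and the smooth muscle actin Acta2 11.8 and 85.2. The defining chain Myh11 read 4.08 and 8.17 there, below the floor, but 403 and 381 on the second type, a log2 ratio of 0.08. On the second type Mylk read 255 and 371, while the actin Actg2 read 181 and 28.4, at least 1.36-fold higher in knockout. The summed signal of the 4 smooth muscle genes there was 954 in knockout and 909 in wildtype. Of these, Actg2 and Myh11 read higher in knockout, Mylk lower, and Synpo2 115 and 128, below the floor. Actg2 had a wildtype signal far under the floor there, and on the first type it read 416 and 517, 1.24-fold lower. The sums of the 2 types cover different genes and are not compared. Of 10 dermal fibroblast and matrix markers, from tissue that neighbours this muscle, 7 were at least 2-fold lower in knockout, where 1.38% of all genes were. They were the collagens Col1a1, Col3a1, Col6a1 and Col6a2, the proteoglycan Lum, the receptor Pdgfra and the transcription factor Twist2. Their falls ran from 3.19-fold to at least 12.6-fold. Agreement between probe sets was not checked for Col1a1 and Col6a1, with 2 each, or for Col3a1 and Pdgfra, with 3 each. The rest of the list did not pass 2-fold. Dcn, its member of highest signal, read 2462 in knockout and 2556 in wildtype, and Col1a2 1082 and 1076. The Col1a2 probe set is 1 of 2 for that gene and carries a suffix. Col5a1 read 565 and 1002, 1.77-fold lower. The list had a median log2 ratio of -1.95 and a summed signal of 4878 against 9487. The summed signal of the 41 muscle genes was 5062 and 5601, of which Tpm1 alone gave 1918 and 2318. The part of these other tissues in the lower values of Tpm1, Mylpf and Actc1 was not tested. In bulk skin fewer cells of a type and less RNA per cell cannot be told apart.

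**Figure D4:**
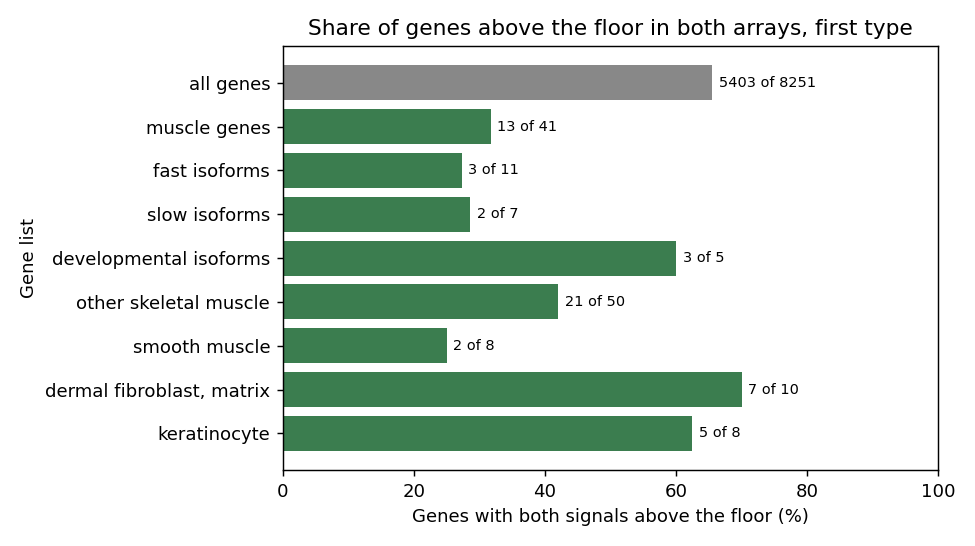
Share of the measured genes of each list with both signals above the floor of the first array type, in percent, with the counts printed beside the bars. Muscle genes stand at 31.7%, the fast isoforms at 27.3%, dermal fibroblast and matrix markers at 70.0% and all genes at 65.5%.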

How the data were processed

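Total RNA of whole skin was labelled with biotin and hybridised to 2 array types, per the labels. The deposited values are intensity signals on a linear scale, 1 per probe set and array, made by the authors with MAS5, per the submitters' processing notes. The version, detection calls and filtering stay unstated: not given in the sources used here. The 2% trimmed means of the deposited columns lay between 500.2 and 500.4. Arrays give no read depth, and their number limits the precision.

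Within a type, both arrays were scaled to the same 2% trimmed mean and floored, and 66 control probe sets per type were left out. A gene took the probe set of highest mean signal that the platform annotation gives to it alone. Of 12422 and 12411 probe sets, 10833 and 10581 name 1 gene, 396 and 178 several, and 1193 and 1652 none listed. Symbols were updated through the gene identifier. limma 3.58.1 in R 4.3.3 (lmFit, eBayes, Benjamini-Hochberg) compared genotypes over the 1081 of 2119 genes on both types with a mean log2 signal above the floor on each, with the type, which is the labels' replicate, as a block. With 1 residual degree of freedom per gene against 13.9 from the prior, its spread is pooled over genes. The steps were tested on simulated data.

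Every muscle gene with a signal above the floor is named with its values, and other lists by members past 2-fold or, failing those, their 2 of highest mean signal. Genes named outside this rule were chosen after their values were seen. Among them are Tcap, Pvalb, Myf5, Mylk, Actg2, Acta2, Synpo2, Dcn, Col1a2, Col5a1, Krt5, Krt14, Myh6, Tnni3, Mbp and the sex-linked genes. Krt1, Krt10, Krtdap, Mef2a, Mef2c, Mef2d, Ankrd2 and Sypl2 are others. The members and lists were chosen with earlier results of these data known. Alternatives covered scaling, floor, probe set choice, rule of size and block.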

Additional observations from a re-analysis of the deposited data

How the results depend on the processing

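With 1 array per genotype and type, replicates could be left out only for Tpm1, whose log2 ratio was then -0.83 to -0.27. Its mean stayed between -0.56 and -0.55 over 5 other settings, and the count of muscle genes past limma's adjusted p stayed at 0, also without the replicate block (-0.55, adjusted p = 1.00). The block changed no adjusted call among muscle genes. Without it the unadjusted p of Tpm1 was 0.779, and over all genes limma called 0 in place of 1 by adjusted p and 0 in place of 110 by unadjusted p under 0.05. With the block, the adjusted p of Tpm1 from limma lay between 0.480 and 0.569.

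On the first type, the count of muscle genes higher in knockout was 2 by a 1.5-fold rule, 0 by a 3-fold rule, 2 under spike-in scaling, 3 with the floor at the 20th percentile, 0 at the 60th, 5 with no floor, 0 with the median over probe sets and 0 without suffixed probe sets. Fewer values lie at a lower floor. The count lower was 3 by a 1.5-fold rule and 3 with no floor. These counts are out of 41. Over all genes, the share higher was 13.5% under spike-in scaling, 3.16% at the 20th percentile and 5.31% with no floor. The share lower was 5.60% at the 20th percentile and 8.57% with no floor. Shares of all genes by the 1.5-fold and 3-fold rules were not taken. Without suffixed probe sets the Tnnt1 ratio reversed to -0.67. Counts with both signals above the floor were 24 and 3 at the 20th and 60th percentile. The list median was 0.52 under spike-in scaling, -0.26 at the 60th percentile and -0.20 with the median over probe sets. Fast, slow and developmental medians were 0.52, 0.43 and 0.80 under spike-in scaling. The fast median was -0.20 with the median over probe sets, the slow -0.46 without suffixed ones and the developmental -0.19 with the floor at the 60th percentile. Of 50 other skeletal muscle genes, 5 were lower and 2 higher by a 1.5-fold rule, and 5 were higher under spike-in scaling. At the 20th percentile 6 were lower and 1 higher, and with no floor 8 were lower and 2 higher.

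On the second type, 1 muscle gene was lower by a 1.5-fold rule. The count with both signals above the floor was 2 under spike-in scaling, 3 at the 20th and 0 at the 60th percentile, where no median could be taken. The median of -0.51 was 0.13 under spike-in scaling and 0 with the median over probe sets. Of 25 other skeletal muscle genes, 2 were higher by a 1.5-fold rule and 4 under spike-in scaling. At the 20th percentile 1 was lower and 3 higher, and with no floor 2 were lower and 6 higher. Over all genes of this type, 13.2% were higher under spike-in scaling. At the 20th percentile 6.47% were lower and 5.49% higher, and with no floor 9.35% and 8.15%. The cause of these moves was not tested. The alternatives on the count with both signals above the floor were chosen after seeing the data. Low signal limits the ratios, since 33 of 54 muscle probe sets on the first type did not reach the floor in either array.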

Other observations

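Markers of other tissues around the panniculus were read on the first type too. Of 6 measured adipocyte genes 1, the fatty acid carrier Fabp4, was above the floor in both arrays, at 90.7 in knockout and 95.1 in wildtype, and Adipoq read 51.9 and 53.9. Of 4 Schwann cell genes the peripheral myelin gene Pmp22 was at least 2.51-fold lower in knockout, at 41.7 and 195, while Mbp read 590 and 588. Of 5 endothelial genes Pecam1 read 115 and 192, 1.66-fold lower, Cd34 was at least 1.48-fold lower, at 40.6 and 115, and none passed 2-fold.

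Among 7 heart muscle genes, the heavy chain Myh6, at 18.1 and 3.57, and the cardiac troponin Tnni3, at 7.69 and 16.2, were below the floor. The natriuretic peptide Nppa read 155 and 177, a log2 ratio of -0.19. The atrial light chain Myl7 read 1034 in knockout against 833 in wildtype skin for the first type, and 503 against 388 for the other, log2 ratios of 0.31 and 0.38. Its source was not tested. The transcription factors Mef2a and Mef2d, which act in muscle and in other cells, read 1517 against 1014 and 3302 against 2073 on the first type. The second type gave 2638 against 1933 and 1452 against 1344. Mef2c, of the same family, went the other way on the second type, at 163 against 227, a log2 ratio of -0.48. On the first type Mef2c read 51.0 against 70.1, below the floor in both arrays. None of these ratios passed 2-fold.

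Among 8 keratinocyte markers of the first type the basal transcription factor Trp63 was 2.09-fold higher in knockout, at 1906 and 913, and Lor was the 1 past 2-fold lower. Over all genes 0.836% were 2-fold higher and 1.38% lower. Of the 5 markers with mean log2 signal above the floor, 4 read lower and 1 higher, with a median log2 ratio of -0.51. Krt1 stood at -0.51, Krt10 at -0.47 and Krtdap at -0.58. On the second type the single marker measured per list was Sox10 at 1175 and 1045, Krt15 at 26582 and 22304 and Car3 at 18.6 and 12.9. The Krt15 probe set there carries a suffix for sequence shared by a family. On the first type Krt15 read 2.33 and 8.42, below the floor in both arrays.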
